A study of Mus musculus with 2 samples.

Results

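The genes described here are 8 transcription factor genes known from endothelium, Erg, Fli1, Sox7, Sox17, Sox18, Gata4, Tal1 and Meis2, chosen by name out of 21887 protein-coding genes counted in single-nucleus chromatin accessibility data of mouse liver. Accessibility was measured as sequenced DNA fragments, cut by a transposase in open chromatin, counted where they touched a gene body or its flanks of 2 kb, and in tiles of 1 kb within 50 kb of each gene. The levels were compared between liver endothelial, Kupffer and stellate cells and between the 2 libraries of the series.

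ETS factors such as Erg and Fli1 bind GGAA-containing sequences in the control regions of most endothelial genes, and Erg is needed to keep endothelial cells in their differentiated state. The SoxF factors Sox7, Sox17 and Sox18 act in vessel formation and arterial identity, often together with ETS factors. In liver, Gata4 is known for its part in making the sinusoidal endothelium, whose cells line the leaky capillaries of the organ, and it is also present in stellate cells, the pericytes that store vitamin A. Tal1 is a basic helix-loop-helix factor of blood and endothelial precursors, and Meis2 is a homeodomain factor that binds DNA with Pbx proteins.

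The series compared 1 mouse with the genotype Spta wt/wt with 1 littermate with the genotype Spta sph/sph, a spectrin mutation that makes red blood cells fragile. Both groups were male mice of 8 to 10 weeks without treatment, and in both the non-parenchymal cells of the collagenase-digested Liver were selected with F4/80-coated beads, F4/80 being a macrophage surface protein, before nuclei were taken. Endothelial and stellate cells were therefore studied only as far as they passed that enrichment. The barcodes carry a suffix of 1 or 2 that no source used here ties to a genotype, so each value belongs to library 1 or library 2, no genotypes are compared, and with 1 library per genotype no p-value is given.

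Library 1 held 637 called cells and library 2 held 575, of which 609 and 562 were kept, with a median of 13220 and 13186 fragments per called cell and 0 barcodes in common. Library 2 stood apart: a median of 53.7% of the fragments of a called cell lay in peaks, against 72.1% in library 1, and 12.1% of its fragments, against 0.653%, lay in local pile-ups, which are 20 kb stretches in which a single cell has 10 or more fragments and exceeds its expected number 10-fold or more. Each class below was named from marker genes, none of them within 50 kb of the 8 genes, and the clustering left out the bins within 50 kb of the 8 genes. The endothelial-like class had 127 cells in library 1 and 141 in library 2, the Kupffer-like class had 329 and 271, and the stellate or fibroblast-like class had 70 and 26. The 16 endothelial markers, among them Pecam1, Cdh5 and Stab2, summed to 2851 and 1666 CPM in endothelial-like cells (CPM being fragments scaled to one fixed total of all fragments of a class), to 646 and 533 CPM in Kupffer-like cells and to 583 and 585 CPM in stellate or fibroblast-like cells, and 0 of the 16 were without fragments in the endothelial-like class. The 12 Kupffer markers summed to 152 and 157 CPM in endothelial-like cells, against 1113 and 665 CPM in Kupffer-like cells.

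Against Kupffer-like cells, the resident macrophages of the liver, 7 of the 8 genes were at least 2-fold more accessible in endothelial-like cells of library 1, where 9.61% of 15061 tested genes were. In library 2 it was 6 of the 7 genes that reached the minimum of 50 fragments, against 9.71% of 14699 genes. The exception in both libraries was Fli1, and Sox18 was not tested in library 2. The same 6 genes, Erg, Gata4, Sox7, Sox17, Tal1 and Meis2, were at least 2-fold higher in both libraries, as were 5.12% of 14164 genes tested in both. All ratios are log2 ratios of CPM relative to the median gene, and the 95% intervals beside them cover counting error only. The median ratio over the 8 genes was 3.28 in library 1 and 1.82 in library 2, where the median of all tested genes is 0 by definition.

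**Figure D1:**
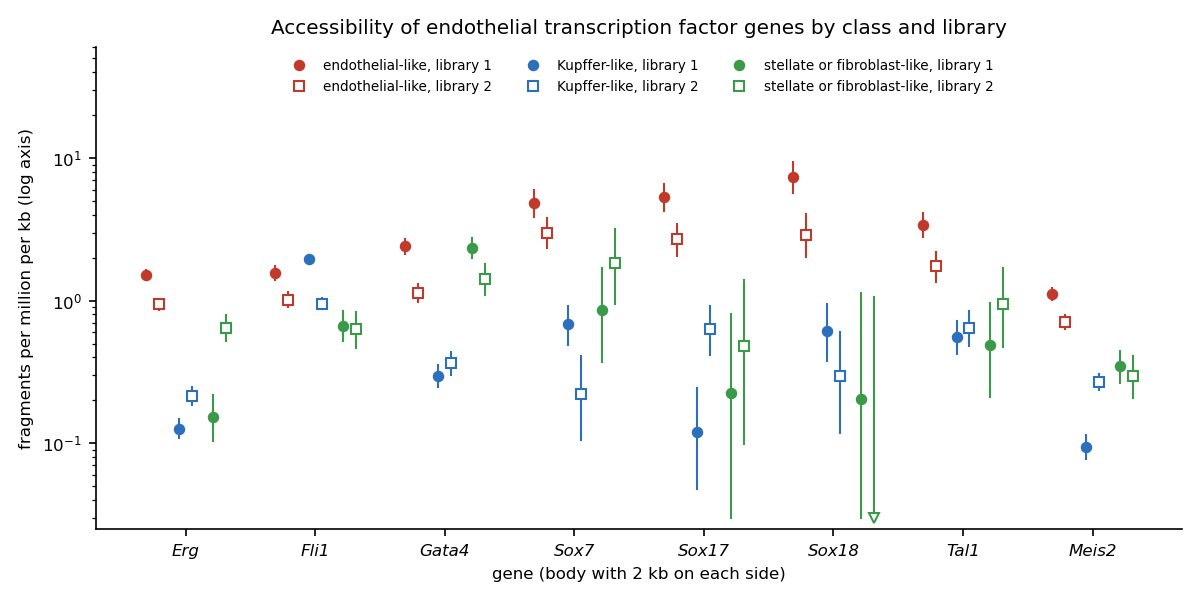
CPM per kb of gene window (log axis) for each gene in endothelial-like, Kupffer-like and stellate or fibroblast-like cells, with filled points for library 1, open points for library 2 and bars for exact 95% Poisson intervals. Endothelial-like cells are the highest class for Erg, Sox7, Sox17, Sox18, Tal1 and Meis2 in both libraries, Kupffer-like cells match or exceed them for Fli1, stellate or fibroblast-like cells match them for Gata4, and a level of 0 (Sox18, library 2) is drawn as a triangle at the foot of the axis.

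Erg, at chr16:95359169-95586600, has 3 annotated starts, and the data bear on which of them lay in open chromatin. The promoter windows, 250 bases before to 50 after each start, are from RefSeq on GRCm38.p6, and 3 of the 8 genes, Erg, Tal1 and Meis2, had such an entry. The Erg promoters are shown in the 5′ to 3′ direction of the gene, on the minus strand. Capitals mark matches on either strand to 5 short motifs, each written here on its own strand: AGGAAG for ETS factors, AGATAA for GATA factors, AACAAT for SOX factors, CAGNTG for E-box binding factors such as Tal1, and TGACAG for Meis factors. None of the marked matches overlap.
Erg start at 95459348, chr16:95459299-95459598: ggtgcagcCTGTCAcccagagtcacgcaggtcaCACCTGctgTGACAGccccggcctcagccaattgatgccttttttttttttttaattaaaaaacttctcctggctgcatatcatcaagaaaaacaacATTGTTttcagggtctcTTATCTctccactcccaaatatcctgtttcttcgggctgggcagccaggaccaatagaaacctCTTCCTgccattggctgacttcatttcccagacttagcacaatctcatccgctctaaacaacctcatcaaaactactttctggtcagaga
Erg start at 95530365, chr16:95530316-95530615: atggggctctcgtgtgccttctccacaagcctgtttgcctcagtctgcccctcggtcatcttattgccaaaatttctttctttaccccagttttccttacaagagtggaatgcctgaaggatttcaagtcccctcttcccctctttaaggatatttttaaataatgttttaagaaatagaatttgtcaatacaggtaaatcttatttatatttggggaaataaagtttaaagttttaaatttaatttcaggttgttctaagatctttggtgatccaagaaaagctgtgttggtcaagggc
Erg start at 95586593, chr16:95586544-95586843: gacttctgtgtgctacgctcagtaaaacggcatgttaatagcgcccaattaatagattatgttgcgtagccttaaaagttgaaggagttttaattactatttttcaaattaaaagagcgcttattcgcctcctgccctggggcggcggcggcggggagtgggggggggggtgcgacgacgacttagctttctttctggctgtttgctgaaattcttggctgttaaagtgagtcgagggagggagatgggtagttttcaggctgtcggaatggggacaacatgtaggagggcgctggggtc

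The Erg promoter at 95459348 held 40 fragments of endothelial-like cells in library 1 and 27 in library 2, which is 24.7 CPM (17.7 to 33.7) and 12.9 CPM (8.52 to 18.8). Kupffer-like cells had 1 fragment there in each library and stellate or fibroblast-like cells 0. The promoter at 95530365 had 0 endothelial-like fragments in both libraries and the one at 95586593 had 1 in each. Of the 3 Erg starts, the innermost was thus the open one in endothelial-like cells, and it is also the only one of the 3 windows with any of the 5 motifs. It holds 1 match to AGGAAG, 1 to AGATAA, 1 to AACAAT, 1 to CAGNTG and 2 to TGACAG. Among 32817 promoter windows of the same length, AGGAAG stands in 35.4%, AGATAA in 11.2%, AACAAT in 10.7%, CAGNTG in 51.4% and TGACAG in 19.2%. A match describes letters and not a bound site.

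Over the whole Erg window the level was 350.2 CPM (322 to 380.3) in endothelial-like cells of library 1 and 218 CPM (199 to 239) of library 2. It was 29.3 and 49.8 CPM in Kupffer-like cells, and 35.3 and 149 CPM in stellate or fibroblast-like cells. The endothelial-like level was the highest of the 3 classes in both libraries and its intervals did not overlap those of the other classes. The log2 ratio to Kupffer-like cells was 3.57 (3.32 to 3.84) and 2.09 (1.85 to 2.34). The ratio to stellate or fibroblast-like cells was 3.16 (2.65 to 3.77) in library 1 and 0.47 (0.15 to 0.82) in library 2. In library 2, 60 of the 89 Erg fragments of stellate or fibroblast-like cells came from 1 cell, and with pile-ups masked the ratio was 1.43.

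In endothelial-like cells Erg also had the most open tiles of the 8 genes, 6 of 328 tiles searched, against 5 of 103 at Sox18. A tile was called open in a class when it reached 10 CPM in both libraries. The 6 open tiles of endothelial-like cells at Erg were all at least 2-fold higher than in both other classes, and neither Kupffer-like nor stellate or fibroblast-like cells had any. Genome-wide, 24.8% of endothelial open tiles were at least 2-fold higher than in Kupffer-like and 16.6% than in stellate or fibroblast-like cells. Because the 6 tiles were picked by their level in endothelial-like cells, this count describes them and is no test. The highest, chr16:95439001-95440000, lay in the gene body 19.8 kb downstream of the start at 95459348 and reached 42.7 and 27.8 CPM, with fragments from 44 and 36 cells. The tile over that start reached 32.2 and 14.4 CPM. A further one, chr16:95373001-95374000, lay 85.8 kb downstream of the same start with 24.1 and 12.5 CPM in endothelial-like cells against 0.179 and 1.71 CPM in Kupffer-like cells. An enhancer of Erg with activity in blood stem cells is known at about this distance.

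**Figure D2:**
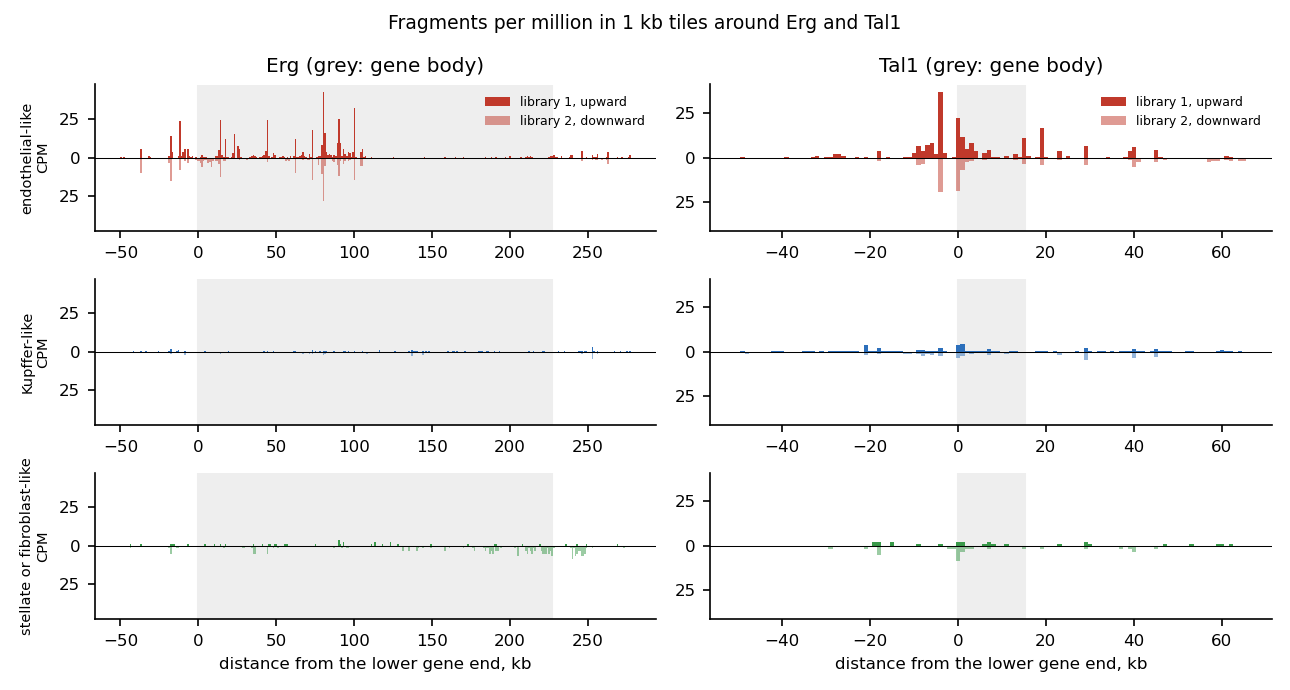
CPM in tiles of 1 kb around Erg and Tal1 by distance from the lower end of the gene in kb (grey, gene body), with 1 row per class, library 1 upward and library 2 downward. Endothelial-like cells show separate peaks in both libraries, up to 42.7 CPM at Erg and 37.1 CPM at Tal1, while Kupffer-like cells stay near 0 and stellate or fibroblast-like cells of library 2 carry a broad low spread at the upper end of Erg.

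Fli1, the ETS factor at chr9:32422204-32543432, was the one gene of the 8 with no higher level in endothelial-like than in Kupffer-like cells. It had 197 CPM (176 to 219.6) and 127 CPM (113 to 144) in endothelial-like cells, 244 CPM (231 to 257) and 119 CPM (109 to 129.9) in Kupffer-like cells, and 83.6 and 78.7 CPM in stellate or fibroblast-like cells. The log2 ratio of endothelial-like over Kupffer-like cells was -0.31 (-0.49 to -0.13) in library 1 and 0.06 (-0.16 to 0.28) in library 2. Fli1 is also known from blood cells, and 2 unnamed clusters whose best-scoring list was that of monocytes had 250.3 CPM (219.0 to 285) in library 1, which overlapped Kupffer-like cells, and 181 CPM (163 to 201) in library 2, which lay above both classes. Monocyte markers scored 1.09 in each, close to T or NK cell markers at 1.04 in library 1 and dendritic cell markers at 0.70 in library 2. Neither cluster is therefore read as monocytes. Against stellate or fibroblast-like cells the endothelial-like ratio of Fli1 was 1.10 (0.73 to 1.50) and 0.61 (0.17 to 1.10), past 2-fold in library 1 and not in library 2.

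The open tiles of Fli1 differed between the classes. Endothelial-like and Kupffer-like cells each had 4 open tiles within 50 kb of Fli1, and 0 of them were shared. Over all 8 genes, 4 of the 26 endothelial open tiles were open in Kupffer-like cells too. The share over all open tiles of the genome was not determined, so the 0 is not read as particular to Fli1. All 4 Kupffer tiles of Fli1 lay in the gene body and together held 95.4 CPM (87.5 to 104) and 45.9 CPM (39.6 to 52.9) in Kupffer-like cells, against 24.7 CPM (17.7 to 33.7) and 19.2 CPM (13.7 to 26.1) in endothelial-like cells. The highest of them in library 1 was chr9:32516001-32517000, with 30.9 and 11.2 CPM in Kupffer-like cells. Of the 4 endothelial tiles, 3 lay in the flanks, and together the 4 held 83.5 CPM (70.0 to 98.9) and 65.1 CPM (54.6 to 77.0) in endothelial-like cells against 13.9 and 9.03 CPM in Kupffer-like cells. A pair of neighbouring tiles, chr9:32400001-32401000 and chr9:32401001-32402000, within the annotated gene Gm31755, carried most of it with 55.7 and 38.8 CPM. Kupffer-like cells had 5 and 3 fragments in that pair, or 0.893 and 0.732 CPM. Stellate or fibroblast-like cells had 60.0 and 48.6 CPM there, so the pair separated Kupffer-like cells from both other classes. Because the tiles of each class were picked by their level in it, these sums describe the sites and are no test.

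**Figure D3:**
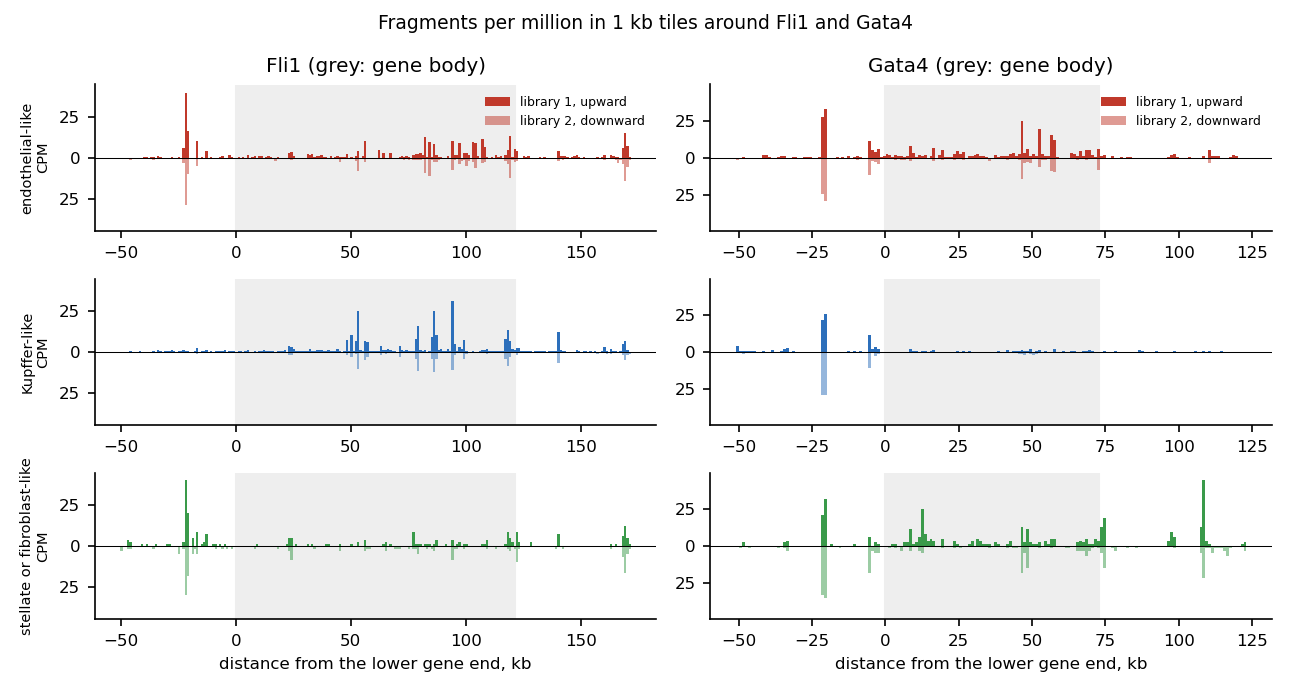
CPM in tiles of 1 kb around Fli1 and Gata4 by distance from the lower end of the gene in kb (grey, gene body), with 1 row per class, library 1 upward and library 2 downward. At Fli1 the Kupffer-like peaks stand in the gene body and the tallest endothelial-like peak stands in the left flank, which is shared with stellate or fibroblast-like cells; at Gata4 the tallest stellate or fibroblast-like peak of library 1, 44.7 CPM, stands in the right flank where endothelial-like cells have 1.24 CPM.

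The SoxF genes are short, and per kb they were the most accessible of the 8 genes in endothelial-like cells. Per kb of window the endothelial-like levels in library 1 were 7.36 CPM for Sox18, 5.30 for Sox17 and 4.83 for Sox7, followed by 3.39 for Tal1, 2.40 for Gata4, 1.57 for Fli1, 1.51 for Erg and 1.11 for Meis2. In library 2 they were 3.0 CPM per kb for Sox7, 2.89 for Sox18, 2.69 for Sox17, 1.73 for Tal1, 1.13 for Gata4, 1.02 for Fli1, 0.944 for Erg and 0.708 for Meis2. The 3 SoxF genes thus led in both libraries, but their order among themselves changed, and their intervals overlapped in library 2. A short window with a fixed flank weighs the promoter more than a long gene does, so this order depends on window length.

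Sox7, at chr14:63943706-63950732, had 53.2 CPM (42.6 to 65.7) and 33.0 CPM (25.7 to 41.8) in endothelial-like cells and 7.50 and 2.44 CPM in Kupffer-like cells. Library 1 gave a log2 ratio of 2.81 (2.27 to 3.39) and library 2 one of 3.66 (2.76 to 4.84). Against stellate or fibroblast-like cells it was 2.29 (1.33 to 3.63) and 0.60 (-0.25 to 1.66). All 12 Sox7 fragments of that class in library 2 came from 1 cell, so this value rests on a single nucleus, and with pile-ups masked 0 fragments were left. Its 4 open tiles, at the lower gene end, in the neighbouring gene Pinx1 and 18295 bases above the lower end, were all at least 2-fold higher than in both other classes. The genome-wide shares were 24.8% against Kupffer-like and 16.6% against stellate or fibroblast-like cells. These tiles too were picked by their level in endothelial-like cells, so the count is no test. One of the tiles in Pinx1, chr14:63908001-63909000, had 29.1 and 16.3 CPM in endothelial-like cells and 0 fragments in Kupffer-like cells of both libraries.

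Sox17, at chr1:4490928-4497426, had 55.7 CPM (44.8 to 68.4) and 28.3 CPM (21.5 to 36.4) in endothelial-like cells. Kupffer-like cells had 1.25 and 6.59 CPM from 7 and 27 fragments, and stellate or fibroblast-like cells had 2 and 3 fragments. The ratio to Kupffer-like cells, 5.38 (4.37 to 6.83) in library 1, was above that of 99.98% of the tested genes and was the highest of the 8, and in library 2 it was 2.05 (1.38 to 2.78). The ratio to stellate or fibroblast-like cells was 4.12 (2.54 to 7.50) and 2.21 (0.80 to 4.74). No tile at Sox17 reached 10 CPM in both libraries, and the highest, chr1:4496001-4497000 in the gene body, had 14.8 and 8.14 CPM. The 5 highest tiles of endothelial-like cells, all in the gene, held 72.2% and 63.8% of the counts over all tiles within 50 kb.

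Sox18, at chr2:181669837-181671640, had 42.7 CPM (33.2 to 54.0) and 16.8 CPM (11.7 to 23.3) in endothelial-like cells and 3.57 and 1.71 CPM in Kupffer-like cells. Library 1 gave a ratio of 3.55 (2.84 to 4.37) and library 2 one of 3.18 (2.07 to 4.67), the latter on 42 fragments in all and below the minimum for testing. Stellate or fibroblast-like cells had 1 fragment in library 1, a ratio of 4.48 (2.53 to 10.38), and 0 in library 2. Against the 5.02 CPM that 3 fragments would give in that class of library 2, the endothelial-like level was at least 3.34-fold higher. Around Sox18, 5 tiles were open in endothelial-like cells, all of them in the flanks. Of these, 3 were at least 2-fold higher than in Kupffer-like cells and 2 than in stellate or fibroblast-like cells. The genome-wide shares were 24.8% and 16.6%. As at Erg, the tiles were picked by their level in endothelial-like cells, so the counts are no test. The tile over the start of the neighbouring gene Rgs19 had 13.6 and 10.1 CPM, against 22.2 and 12.0 CPM in Kupffer-like cells. The highest of the 5, chr2:181659001-181660000 in Gm29797, had 56.9 and 48.9 CPM, the highest tile of all 8 genes, with fragments from 53 and 54 cells. It was open in stellate or fibroblast-like cells as well, at 10.6 and 11.7 CPM.

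Gata4, at chr14:63198914-63271712, was shared by endothelial-like and stellate or fibroblast-like cells. It had 184 CPM (164 to 207) and 86.7 CPM (74.5 to 100.3) in endothelial-like cells, 179 CPM (152 to 209.8) and 109 CPM (84.0 to 139) in stellate or fibroblast-like cells, and 22.9 and 27.8 CPM in Kupffer-like cells. The ratio to Kupffer-like cells was 3.0 (2.70 to 3.32) and 1.60 (1.26 to 1.95), and 38 of the 114 fragments of Kupffer-like cells in library 2 came from 1 cell. With pile-ups masked the library 2 ratio was 2.17. The ratio of endothelial-like to stellate or fibroblast-like cells was -0.09 (-0.37 to 0.21) and -0.41 (-0.82 to 0.03), so neither interval lay wholly on one side of the median gene, and differences of up to 0.82 are within them. Stellate or fibroblast-like over Kupffer-like cells gave 3.07 (2.73 to 3.42) and 2.02 (1.55 to 2.47).

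Some tiles of Gata4 were open in both classes and others in 1 of them. The tile chr14:63245001-63246000 in the gene body was open in both, with 24.7 and 14.4 CPM in endothelial-like and 12.95 and 18.4 CPM in stellate or fibroblast-like cells, and had 0.893 and 1.22 CPM in Kupffer-like cells. A set of 3 tiles, chr14:63247001-63248000, chr14:63273001-63274000 and chr14:63307001-63308000, was open in stellate or fibroblast-like cells and not in endothelial-like cells. They summed to 75.4 CPM (58.0 to 96.2) and 51.9 CPM (35.3 to 73.7) in the first and 9.28 CPM (5.19 to 15.3) and 3.83 CPM (1.65 to 7.55) in the second. The last of them, beyond the upper gene end, had 44.7 and 21.8 CPM in stellate or fibroblast-like cells and 1.24 and 0.479 CPM in endothelial-like cells. Because the 3 were picked by their level in each class, their sums are no test. By a rule of at least 2-fold in both libraries, 2 of the 6 stellate or fibroblast-like open tiles at Gata4 were higher than in endothelial-like cells, against 23.5% of such tiles of the whole genome. Those 6 were picked by their level in stellate or fibroblast-like cells, so this count is no test either. The other 3 endothelial tiles at Gata4, in the neighbouring genes Fdft1 and Neil2, were open in Kupffer-like cells too.

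Tal1, at chr4:115056426-115071755, had 65.6 CPM (53.7 to 79.3) and 33.5 CPM (26.1 to 42.4) in endothelial-like cells. Kupffer-like cells had 10.7 and 12.4 CPM, and stellate or fibroblast-like cells 9.42 and 18.4 CPM. The endothelial-like intervals lay above those of Kupffer-like cells in both libraries, with ratios of 2.60 (2.14 to 3.09) and 1.39 (0.85 to 1.94). Against stellate or fibroblast-like cells library 1 gave a ratio of 2.59 (1.64 to 3.92) and library 2 one of 0.74 (-0.14 to 1.86). The 2 unnamed clusters described for Fli1 differed at Tal1. In library 2 the cluster reached 30.5 CPM, and its interval of 23.5 to 39.1 overlapped that of endothelial-like cells. The library 1 cluster stayed below endothelial-like cells, at 20.6 CPM with an interval of 12.4 to 32.1. Tal1 thus separated endothelial-like cells from such a cluster in library 1 only. The tile over the first annotated start, chr4:115056001-115057000, had 22.3 and 18.7 CPM in endothelial-like cells and 3.57 and 3.42 CPM in Kupffer-like cells. The promoter window of 300 bases at that start held only 3 endothelial-like fragments in each library, as did the one at the start at 115057811. A tile centred at -3.93 kb, before the first annotated start, chr4:115052001-115053000, had 37.1 and 19.2 CPM in endothelial-like cells and 1.97 and 2.44 CPM in Kupffer-like cells. In endothelial-like cells it was thus above the start tile in library 1, while in library 2 the 2 tiles held 40 and 39 fragments. The tile chr4:115075001-115076000, 19.1 kb after the first start, had 16.7 CPM in library 1 and 3.83 CPM in library 2 and so was not open by the rule. Enhancers of Tal1 active in endothelial and blood precursor cells are known at about these distances on either side of its start.

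Meis2, at chr2:115861264-116067537, had 234 CPM (211 to 259) and 149 CPM (133 to 166) in endothelial-like cells. Kupffer-like cells had 19.8 and 56.4 CPM, and stellate or fibroblast-like cells had 73.0 and 62.0 CPM. The order of the 3 classes was the same in both libraries except that stellate or fibroblast-like and Kupffer-like cells overlapped in library 2. The ratio of endothelial-like to Kupffer-like cells was 3.56 (3.25 to 3.88) and 1.36 (1.11 to 1.62), and that to stellate or fibroblast-like cells 1.55 (1.17 to 1.97) and 1.18 (0.70 to 1.72). Meis2 and Sox17 were the 2 genes past 2-fold against stellate or fibroblast-like cells in both libraries, as were 2.83% of 10516 genes tested in both. The open tile of Meis2, chr2:116065001-116066000, had 21.7 and 17.7 CPM in endothelial-like cells and was centred at -0.88 kb from the annotated start, that is before it. The promoter window at that start held 3 and 1 endothelial-like fragments. The tile was open in stellate or fibroblast-like cells too, at 11.8 and 10.1 CPM.

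Against stellate or fibroblast-like cells, 7 of the 8 genes were at least 2-fold higher in endothelial-like cells of library 1, as were 7.28% of 11415 genes, and Gata4 was the exception. In library 2 it was 2 of 7 tested genes against 9.33% of 11302. The stellate or fibroblast-like class of library 2 had 26 cells and 597015 fragments. With pile-ups masked the count in library 2 was 4, and it was also 4 without the cells that a doublet score against simulated pairs marked.

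**Figure D4:**
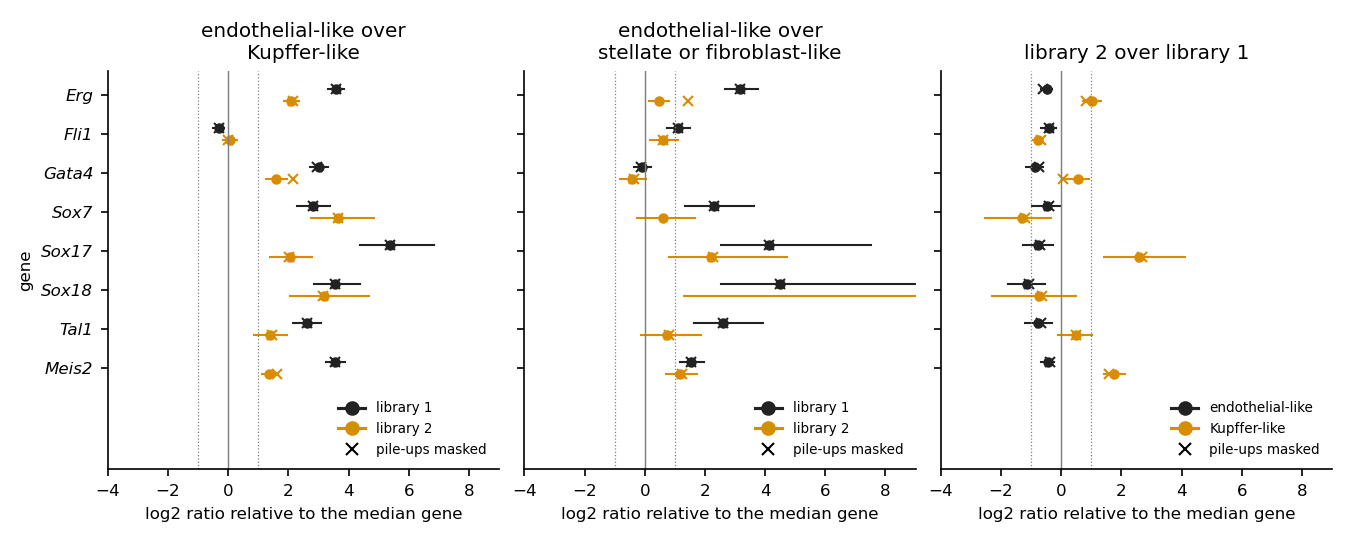
Log2 ratios of CPM relative to the median gene, with exact 95% intervals (those beyond 9 are cut at the edge), for endothelial-like over Kupffer-like cells, endothelial-like over stellate or fibroblast-like cells and library 2 over library 1, with crosses for values with pile-ups masked, dotted lines at 2-fold and no point or cross where stellate or fibroblast-like cells had 0 fragments (Sox18, and Sox7 once masked, in library 2). In the left panel all 8 genes but Fli1 lie beyond 1, in the middle panel Gata4 lies near 0, and in the right panel the 8 endothelial-like values lie below 0.

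Open tiles were counted over all 8 genes together. Of 1466 tiles within 50 kb of the 8 genes, 26 were open in endothelial-like cells, 8 in Kupffer-like and 11 in stellate or fibroblast-like cells. At least 2-fold higher than in Kupffer-like cells in both libraries were 21 of the 26, or 80.8%, against 24.8% of the 13747 open tiles of the genome. At least 2-fold higher than in stellate or fibroblast-like cells were 15, or 57.7%, against 16.6%. The 26 tiles were picked by their level in endothelial-like cells, at genes chosen as endothelial factors. Their shares therefore describe them and are no test. The tiles did not always follow the gene totals. At Fli1 4 of 4 endothelial tiles were higher than in Kupffer-like cells, at Sox18 3 of 5 and at Gata4 1 of 4. Sox17 had 0 open tiles. By place, 16 of the 26 lay in the flanks, or 61.5%, where 54.6% of all 1466 tiles lie, 8 in gene bodies and 2 at gene ends.

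How many cells carried the signal was read after each cell was thinned to 5000 fragments, which left 102 and 127 endothelial-like and 298 and 245 Kupffer-like cells. A fragment of Erg was found in 76.5% (67.0 to 84.3) of endothelial-like cells of library 1 and 54.3% (45.3 to 63.2) of library 2, against 12.4% and 16.3% of Kupffer-like cells. Sox17 was found in 18.6% and 11.0% against 1.01% and 2.86%, and Tal1 in 26.5% and 15.7% against 5.70% and 5.71%. The share thus followed window length as well as class, since a long window catches more fragments. For Sox18 in library 2 the shares were 3.15% (0.865 to 7.87) and 0.816% (0.099 to 2.92), which overlap. Over the 8 genes the median share in endothelial-like cells was 41.2% in library 1 and 25.6% in library 2. Without thinning, at median depths of 10619 and 11454 fragments, Erg was found in 84.3% and 75.9% of endothelial-like cells, and in 29.5% and 35.8% of Kupffer-like cells at 15960 and 12275.

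**Figure D5:**
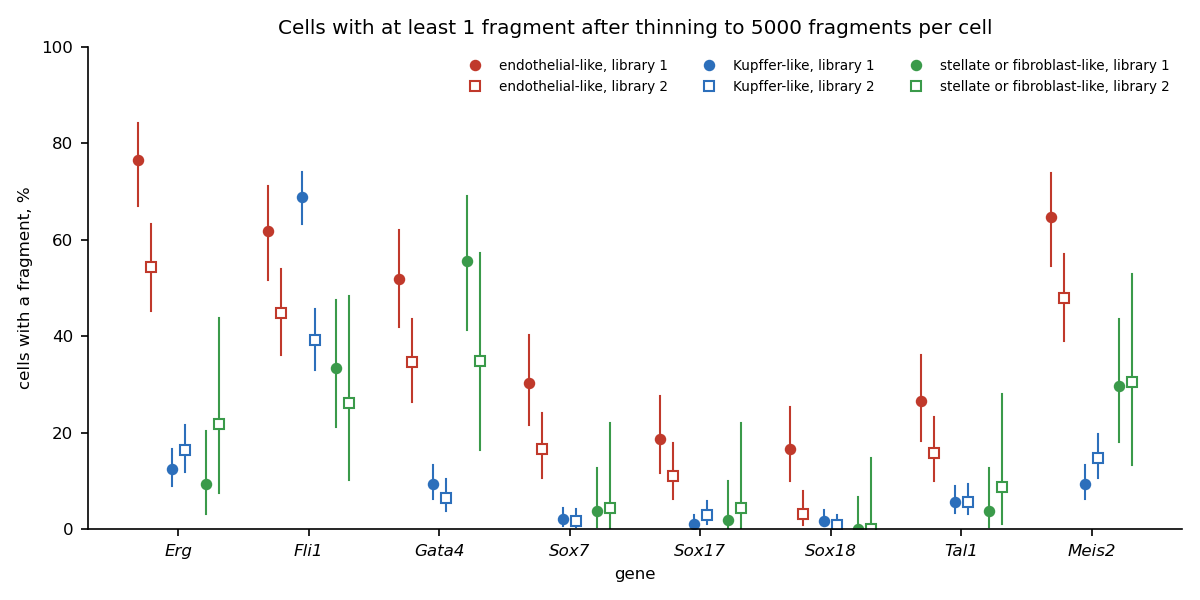
Percent of cells with at least 1 fragment of a gene after thinning to 5000 fragments per cell, by class, with filled points for library 1, open points for library 2 and bars for exact 95% Clopper-Pearson intervals. Erg falls from 76.5% to 54.3% between the libraries in endothelial-like cells and stays at or below 21.7% in Kupffer-like and stellate or fibroblast-like cells. Fli1 is found in 68.8% and 39.2% of Kupffer-like cells. Unnamed clusters are not drawn, and in them Erg reached 28.0% (16.2 to 42.5) in library 1 and 38.0% (27.3 to 49.6) in library 2.

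Between the libraries, all 8 genes were lower in endothelial-like cells of library 2, each with an interval below the median gene. The share of all tested genes with such an interval was not counted. Of all tested genes, 1.48% had a lower ratio than Sox18, the lowest of the 8, and 18.9% a lower one than Fli1, the highest. The log2 ratio of library 2 over library 1 ranged from -0.42 (-0.66 to -0.18) for Fli1 to -1.13 (-1.77 to -0.53) for Sox18. Only Sox18 passed 2-fold, where 2.56% of 12835 genes were at least 2-fold lower and 7.34% at least 2-fold higher. Endothelial markers and target genes moved the same way: 14 of the 16 markers were below the median gene with a median of -0.50, and 10 of 12 tested target genes with a median of -0.55. The factor lists described below moved less or less evenly. Other endothelial factors had a median of -0.26 with 13 of 17 below. Family relatives had -0.07 with 12 of 22 below, and Tal1 partners -0.45 with 5 of 8 below. The share of fragments in peaks was lower too in library 2, 72.8% against 54.5% in this class, and its part in the result was not tested. With pile-ups masked the median over the 8 genes was -0.65, against -0.62 without masking. In cells with at least 50% of their fragments in peaks, an alternative chosen after the data were seen, Sox18 remained the one gene past 2-fold, at -1.16, and the interval of Sox7 reached the median gene (-0.97 to 0.06).

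In Kupffer-like cells the 8 genes did not all move one way, and 6 of them reached the minimum for testing. There Meis2 at 1.77 (1.44 to 2.11) and Erg at 1.03 (0.72 to 1.33) were at least 2-fold higher in library 2, as were 9.13% of 15798 genes, Sox7 at -1.31 (-2.52 to -0.34) was at least 2-fold lower, as were 2.85%, and Fli1 was at -0.77 (-0.93 to -0.62). With pile-ups masked Erg was at 0.83 and no longer past 2-fold, and Meis2 was at 1.58. Gata4 moved from 0.55 to 0.05. Without masking Tal1 was at 0.48 (-0.09 to 1.04). Sox17 and Sox18 had too few fragments to be tested. The shift of Sox17 was the largest of the 8 genes, at 2.59 (1.42 to 4.10), on 7 fragments in library 1 and 27 in library 2. Sox18 was at -0.74 (-2.29 to 0.50). Endothelial markers in Kupffer-like cells had a median of 0.33, with 3 of 14 at least 2-fold higher and 1 lower. The markers of the Kupffer-like class itself were lower in library 2, with a median of -0.54 and 11 of 12 below the median gene, as the endothelial markers were in endothelial-like cells. The share of fragments in peaks of Kupffer-like cells was 73.9% and 53.1%. The libraries share no mouse, and mouse, genotype and library cannot be told apart.

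Other members of the same factor families were mostly within 2-fold between endothelial-like and Kupffer-like cells. Of 28 listed ETS, GATA, Meis, Pbx and Tal relatives, 4 of 24 tested were at least 2-fold higher and 2 lower in library 1, and 5 of 23 higher and 1 lower in library 2, with medians of -0.03 and 0.17. Of all tested genes 12.0% were at least 2-fold lower in library 1 and 10.9% in library 2. Gata2, a GATA factor of blood and endothelium, had ratios of 2.68 (2.20 to 3.18) and 2.59 (2.03 to 3.20), Lyl1, the closest relative of Tal1, 1.12 and 1.81, and Ets1 1.42 and 1.45. At the other end Spi1, the ETS factor that defines macrophages, was at -1.88 (-2.24 to -1.55) and -1.65 (-2.06 to -1.28), and Elk1 at -0.80 and -0.60. The 2 ends of the ETS family thus pointed to opposite classes, with Erg on the endothelial side, Spi1 on the Kupffer side and Fli1 between them.

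Among 22 other factors known from endothelium, 8 of 18 tested were at least 2-fold higher in library 1 and none lower, and in library 2 it was 5 higher and 1 lower, with medians of 0.84 and 0.55. Nr2f2, which marks venous identity, had 5.25 (4.45 to 6.29) and 1.83 (1.31 to 2.39), Epas1, a hypoxia-inducible factor, 2.43 and 2.10, and Bcl6b 2.08 and 1.79. Against stellate or fibroblast-like cells Nr2f2 was at -0.47 (-0.86 to -0.07) and -0.47 (-1.05 to 0.18), so lower in library 1, and Epas1 at 0.05 (-0.18 to 0.28) and 0.13 (-0.19 to 0.47). Tfec lay below the median gene in both libraries, at -0.88 and -0.84.

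Of the 8 partners of Tal1 in DNA-bound complexes, 2 were at least 2-fold higher and 1 lower in each library, with medians of -0.04 and 0.00. The corepressor Cbfa2t3 had 2.02 (1.76 to 2.28) and 1.52 (1.17 to 1.88), and the adaptor Ldb1 1.08 and 1.21. Tcf3, an E protein that pairs with Tal1, was at 0.11 and 0.52, and the bridging protein Lmo2 at -0.26 and -0.88. Runx1 was on the Kupffer side at -2.78 (-3.20 to -2.42) and -1.48 (-1.77 to -1.20). The partners therefore did not move with Tal1 as a group.

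Endothelial genes known as targets of these factors were mostly higher. Of 13 listed, 10 of 12 tested were at least 2-fold higher than in Kupffer-like cells in library 1 and 8 of 12 in library 2, with medians of 2.23 and 2.05 and none lower. Cldn5, a tight junction protein, had 4.55 (3.72 to 5.60) and 2.78 (1.91 to 3.83), the receptor Robo4 3.50 and 2.66, and the adhesion molecule Esam 3.17 and 3.26. The lowest were Nrp1, a VEGF coreceptor, at 0.94 and 0.46, and Vwf, the clotting factor carrier, at -0.14 (-0.39 to 0.10) and -0.01 (-0.24 to 0.22). Vwf was thus level between the classes while most other listed targets were not.

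Across 10 sums of cells, each a class or cluster of at least 20 cells in 1 library, the genes whose log2 CPM varied most like each of the 8 were Slc24a5, Mark4 and Med9 for Erg, Pear1, Dkk3 and Ccnjl for Gata4, and Plxna2, Adgrl4 and Lrrc9 for Sox17. For Sox18 they were Cd59a, Anks1 and Cox10, for Sox7 Mb21d2, Aopep and Palld, for Tal1 Rps6ka2, Ntn4 and Vwa7, for Meis2 Ubxn10, Sulf1 and Pcdh12, and for Fli1 Ccdc43, Phykpl and Fam111a. The Pearson r of the closest gene ranged from 0.94 to 0.99. The sums share libraries and classes, so r is given as a description. Among the 8 genes themselves Erg varied most like Tal1 (r of 0.90) and Sox17 (r of 0.90), and Fli1 was least like Sox7 (r of -0.37).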

How the data were processed

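Single-nucleus ATAC-seq fragments of 2 libraries were used. Cell Ranger ATAC 1.2.0, Signac 0.2.4 with R 3.6.1, and the build GRCm38.p5 are named per the submitters' processing notes, without the step each served. The authors deposited a table of unique fragments with counts of read pairs, not normalized, and a per-barcode table with counts of fragments and the authors' cell calls. Each fragment was counted once. Gene positions came from a RefSeq table of GRCm38.p6, which shares the primary chromosomes of GRCm38.

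The 8 genes and all gene lists were chosen with earlier results of these data known. Called cells with at least 1000 fragments and 15% of fragments in peaks and at most 5% blacklisted were kept. Each library was clustered on its own, in 5 kb bins (TF-IDF, 30 components without the first, 20 neighbours, Leiden resolution 0.5, leidenalg 0.10.2, scikit-learn 1.9.0). A cluster was named where its leading marker list (117 markers in 13 lists) scored at least 0.5, led by 0.5 and had 3 markers in 10% of cells, limits set after the scores were seen. A score against simulated pairs marked 4 and 19 cells as doublets and an overlap rule 69 and 87, and these were kept. Left unnamed were 55 cells of library 1, and 89 and 35 of library 2.

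CPM scales the fragments of a window by all fragments of its class, and its intervals are exact Poisson ones. Log2 ratios had 0.5 added to each count, exact binomial intervals and the median gene subtracted, and genes needed 50 fragments in the classes compared. The ratio code was tested on simulated data. Named list genes were the 3 highest and 2 lowest per list by the mean ratio to Kupffer-like cells, with 50 fragments in each library, and described tiles came from the 5 highest per gene and all open ones. A gene among the other endothelial factors is counted but not reported here.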

Additional observations from a re-analysis of the deposited data

How the results depend on the processing

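Over all settings tried, 533 of 576 single-gene ratios moved by less than their counting interval, 43 moved further and 0 called values changed sign. The 533 include a setting that scaled by fragments near transcription start sites. It cannot move these ratios, because the median gene is subtracted. Thinned cells gave 3 genes in place of 7 against Kupffer-like cells in library 1, 3 in place of 6 in library 2, and 3 in place of 7 against stellate or fibroblast-like cells in library 1, since fewer genes then reach 50 fragments. Against stellate or fibroblast-like cells in library 2, classes from markers alone gave 1 gene in place of 2, removal of doublets by simulated pairs gave 4 and masked pile-ups gave 4. Without cells marked by the overlap rule, 2 genes in place of 1 differed between libraries, and the cause was not tested. A threshold of 20 CPM left 5 tiles in place of 21. Without thinning the median share of cells was 58.3% in place of 41.2% in library 1 and 46.5% in place of 25.6% in library 2. Clustering both libraries together, chosen after seeing the data, left too few endothelial-like cells in library 2. It gave no value there or between the libraries. Few cells limit the stellate or fibroblast-like values of library 2. No paired analysis was possible because each genotype has 1 library and no label ties a library to a genotype.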
